A study of Mus musculus with 6 samples.

Results

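The genes described here are the ubiquitin-specific peptidases, 42 genes of 36550 features measured in mouse liver. They were taken from the gene descriptions on the array, as every target whose description holds the words ubiquitin specific peptidase or protease, apart from number 18. That gave 71 target rows of 44170, and a gene with several rows was represented by its brightest one, judged over the 6 arrays together without regard to the groups. Each array carried RNA from the liver of 1 mouse, and all 6 mice were wild-type C57 BL/6 males aged 9 to 10 weeks. In 1 group 3 mice received 0.01 μg LPS (lipopolysaccharide), and in the other 3 mice received the same LPS together with 20 mg GalN (D-galactosamine). Livers were taken at 2.5 h, and each replicate came from a separate treatment. All 6 mice had LPS, so every difference below is that of LPS/GalN against LPS, and neither untreated mice nor mice given GalN alone were analysed here.

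Ubiquitin is a small protein that is joined to other proteins to mark them for the proteasome, for sorting in membranes or for assembling signalling complexes. The ubiquitin-specific peptidases are the largest family of enzymes that take it off again, most of them cysteine proteases with a shared catalytic fold and different partners. In liver they act on hepatocyte proteins, on signalling from Toll-like and cytokine receptors, and on histones. LPS is a bacterial cell wall component sensed by Toll-like receptors, and GalN is an amino sugar taken up mainly by hepatocytes, where it ties up uridine nucleotides and limits RNA synthesis. The pair is used as a model of acute liver injury.

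Of the 42 genes, 2 were called lower in LPS/GalN (adjusted p under 0.05, limma with Benjamini-Hochberg adjustment over all features), and the background was 3.03% of all features. The members' share was 4.76%, near that background. Counted over target rows it was 2 of 71, against 3.13% of all rows. None of the 42 was called higher by limma, against 0.607% of all features. At an unadjusted p under 0.05, 7 members were lower (background 9.05%) and 2 higher (background 8.5%). The median log2 difference over the 42 genes was -0.02 (quartiles -0.46 and 0.17), beside 0.05 over all features (quartiles -0.27 and 0.34). Negative differences were found in 22 members and positive ones in 20. The 95% interval of the difference lay within 1 log2 unit either way for 25 of the 42, and for 17848 of all 36550 features. For those 25 genes a change of 2-fold or more in measured intensity fell outside the interval. Of the 25, however, 6 were among the 8 members not above the level of random probes on all 6 arrays. There the size of a change in transcript is not resolved. The differences thus lay on both sides of 0, and the 2 members that passed the test were Usp53 and Usp25.

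In 12 members the values of the 2 groups did not overlap, 8 lower and 4 higher in LPS/GalN. These are 19% and 9.52% of the members, against 11.1% and 13% of all features. The 8 lower ones were Usp53, Usp25, Usp12, Usp38, Usp16, Usp36, Usp31 and Usp14, and the 4 higher ones were Usp21, Usp39, Usp51 and Usp4.

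**Figure D1:**
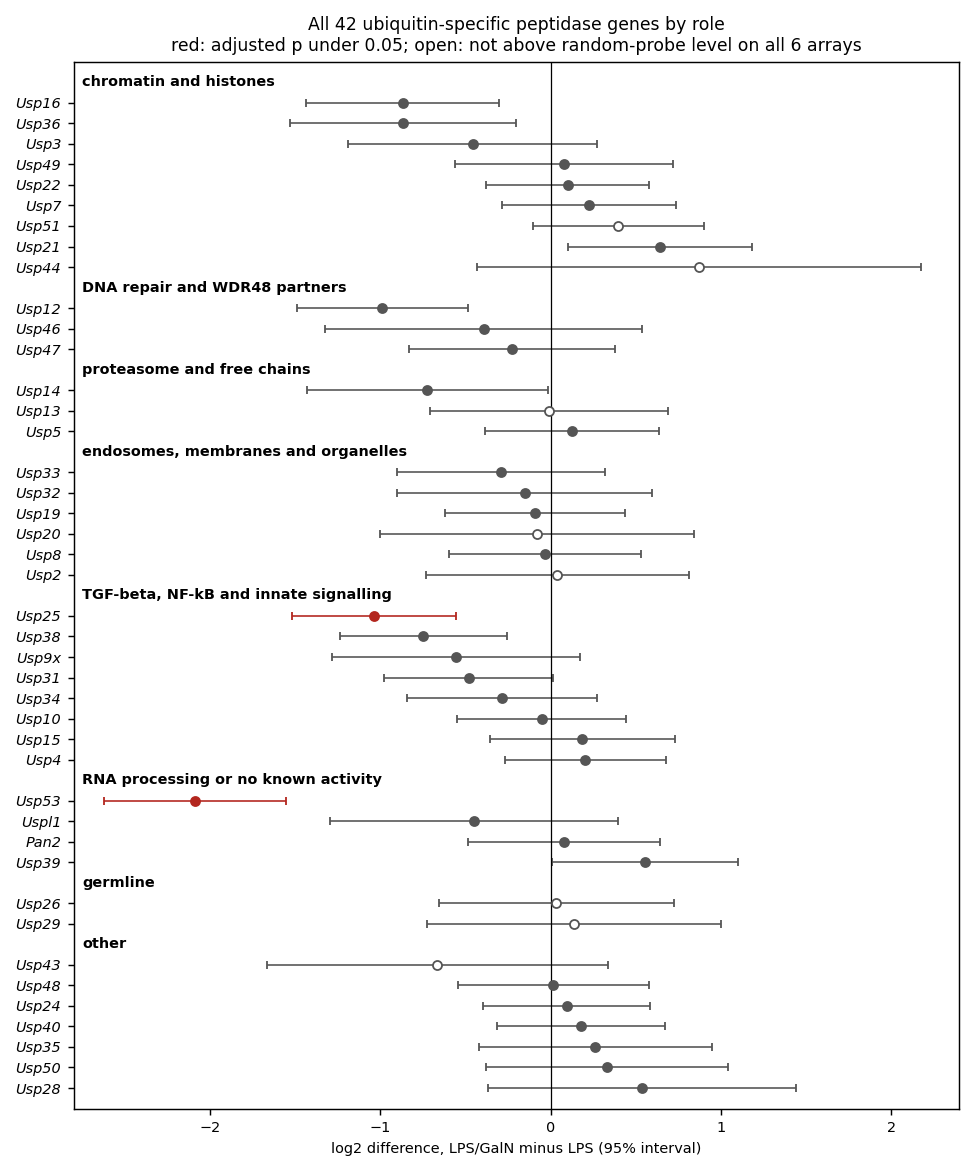
Log2 difference of LPS/GalN minus LPS (horizontal axis) for all 42 ubiquitin-specific peptidase genes, in blocks by role; dots are the estimates from 3 arrays a group and bars their 95% intervals. Usp53 at -2.09 and Usp25 at -1.04 are the 2 red dots (adjusted p under 0.05), and the open dots are the 8 genes not above the random-probe level on all 6 arrays.

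Values are log2 of the RMA intensity, a background-corrected and normalised brightness, and a row of random probes on each array gives the level reached without a target, 4.97 to 5.12 on this scale. Median intensities of the arrays were 60.4 to 63.1. Of the 42 members, 34 (81%) were above the random-probe row on all 6 arrays, against 54.4% of all features. Markers of other tissues set some arrays apart. The summed intensity of 8 intestine markers was 24423 and 25375 on LPS arrays 1 and 2, against 2157 on LPS array 3 and 1751 to 2043 on the LPS/GalN arrays. Over 7 measured T cell and thymus markers of 9 listed, the sum was 11631 and 7037 on LPS/GalN arrays 2 and 3, 356 on LPS/GalN array 1 and 427 to 623 on the LPS arrays. All 8 intestine markers were above the random-probe row on LPS arrays 1 and 2 and 5 to 6 on the other arrays, and the T cell list had 5 to 7 above it on every array. The 5 hepatocyte markers (Alb, Apoa1, Ttr, Cps1 and Serpina1a) summed to 225493 to 248662 on all 6. The sum of 7 neutrophil markers was lower in LPS/GalN, at 1048 to 1887 against 2709 to 3710. Singly these markers differed by -1.66 to 0.10 log2 units, with 2 called lower. For 6 measured endothelial markers the sum was higher, at 6206 to 6638 against 3160 to 4789, with 1 called higher. For 5 Kupffer cell markers it was higher, at 5793 to 7631 against 3800 to 5038, with 0 called. The part of these in the results was not tested, and in whole tissue fewer cells of a type and less RNA per cell cannot be told apart. LPS array 3 and LPS/GalN array 1 are the 2 arrays low in both the intestine and the T cell list, and their difference is given beside the main results. This pair is not free of other marker differences. The sum of 4 erythroid markers was 15454 on LPS/GalN array 1 and 10926 and 10944 on LPS/GalN arrays 2 and 3. On the LPS arrays it was 9249 to 11038. Sums of 5 pancreas markers were 173 to 219 in LPS/GalN and 258 to 323 in LPS.

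Usp53 belongs to the members with no known or an atypical activity. It carries a peptidase-like domain, is found at tight junctions, and its loss in people is linked to inherited cholestasis. It had the largest difference of the family. Its log2 intensity was 8.57, 8.25 and 8.29 on the LPS arrays and 6.31, 6.02 and 6.499 on the LPS/GalN arrays. The lowest LPS value stood well above the highest LPS/GalN value, and all 6 were above the random-probe row. The gene fell by 2.09 ± 0.23 log2 units (SE, n = 3 and 3; 95% interval -2.63 to -1.55), or 4.26-fold, with an adjusted p of 0.00265 by limma. It stayed past the threshold with each array left out in turn, with differences of -2.201 to -1.963 and adjusted p from 0.00704 to 0.0188. With LPS arrays 1 and 2 both left out it was -2.01, and without LPS/GalN arrays 2 and 3 it was -2.06. These fits keep 1 array in a group, so only the size of the difference is read from them. Between the 2 arrays low in intestine and T cell markers the difference was -1.98, with 1 array a group and no test. Its target lies at chr3:122636616-122672066 in mm9; the files give the position of the transcript and not of the probes, so whether a probe falls in an exon or a UTR is not known here for this or any gene below.

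Another 4 rows outside the rule overlap the Usp53 locus with other clone names. Their differences were -1.05, -0.56, -0.53 and -0.11, all below 0 and none past the threshold. The brightest of them read 7.07, 6.56 and 6.60 in LPS and 5.47, 5.68 and 5.93 in LPS/GalN, without overlap, at an adjusted p of 0.064 by limma. The remaining 3 rows had groups that overlapped and were not above the random-probe row on every array.

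**Figure D2:**
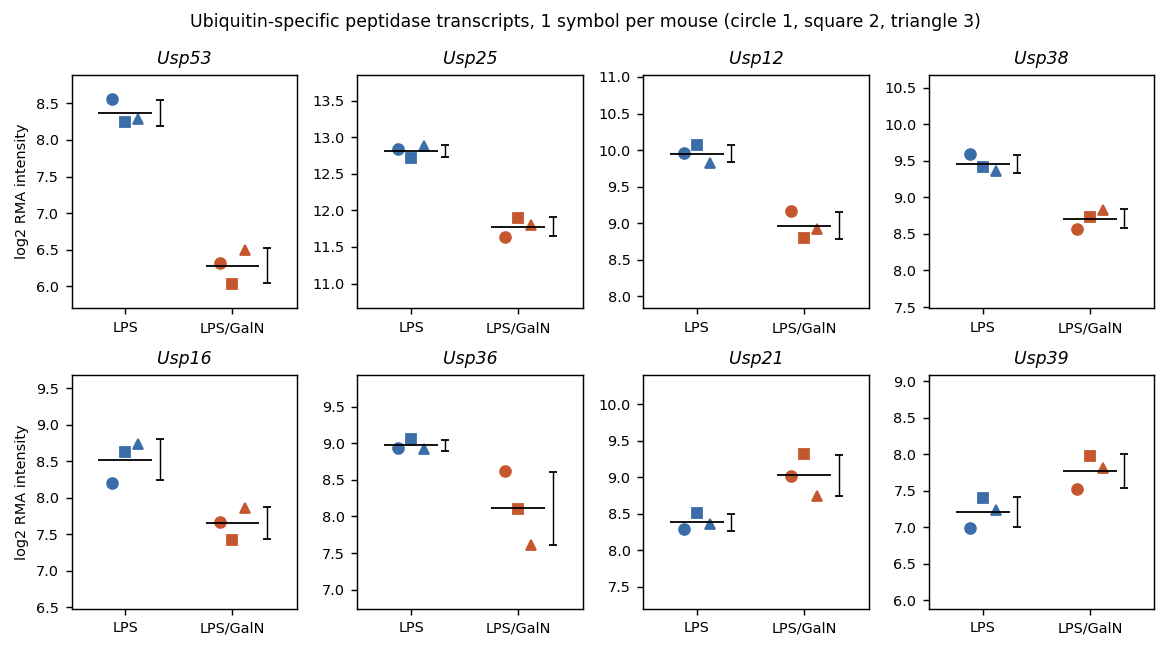
Log2 RMA intensity (vertical axis, each panel spanning the same number of log2 units) of 8 members in LPS and LPS/GalN livers; each symbol is 1 mouse (circle 1, square 2, triangle 3), the line is the group mean and the bar 1 SD either way (n = 3). Usp53 falls from a mean of 8.37 to 6.28 and Usp25 from 12.81 to 11.78, while Usp21 reads 8.38 in LPS and 9.03 in LPS/GalN; the groups do not overlap in any of the 8 panels.

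The signalling members take ubiquitin off components of the TGF-beta, NF-kappaB and interferon pathways. Of 8 such genes 1, Usp25, was called lower and none higher, and their median difference was -0.38. Usp25 acts on the TRAF adaptors that carry signals from Toll-like and cytokine receptors. Its log2 intensity was 12.84, 12.71 and 12.88 in LPS and 11.64, 11.89 and 11.80 in LPS/GalN. The groups were tight and did not overlap. Usp25 fell by 1.04 ± 0.21 (SE, n = 3 and 3; 95% interval -1.52 to -0.55), or 2.05-fold, at an adjusted p of 0.0356 by limma. The size held with each array left out, between -1.09 and -0.96, but the call was lost each time, with adjusted p from 0.080 to 0.131 at the smaller n. Between LPS array 3 and LPS/GalN array 1 it was -1.25. A second Usp25 row, with a mean of 5.18 near the random-probe level and above it on 2 of 3 arrays in each group, differed by -0.13 ± 0.23. The target is at chr16:77014313-77117025 in mm9.

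Usp38, known for acting on the kinase TBK1 in interferon induction, was next among the signalling genes. It read 9.59, 9.42 and 9.36 in LPS and 8.57, 8.73 and 8.83 in LPS/GalN. The groups did not overlap, and the difference was -0.75 ± 0.21 with an adjusted p of 0.115. It was -0.79 between the 2 arrays low in both marker lists.

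The other 6 signalling genes missed the threshold more widely. Usp9x, a large X-linked enzyme with many targets, read 7.87, 8.20 and 8.27 against 6.94, 7.70 and 8.03, where LPS/GalN array 1 was lowest and the groups overlapped (-0.56 ± 0.32). Its 2 dimmer rows differed by 0.14 and 0.37, the opposite sign. Usp31 gave -0.48 ± 0.22 and Usp34, which acts on axin in Wnt signalling, -0.29 ± 0.24. Usp4 and Usp15, close relatives that act on the TGF-beta receptor, stood at 0.20 ± 0.21 and 0.19 ± 0.24. Their 95% intervals were -0.27 to 0.68 and -0.36 to 0.73, and the groups of Usp4 did not overlap. Usp10, the partner of the stress granule protein G3BP1, was among the 5 brightest members and read 10.69, 10.99 and 10.95 against 10.92, 10.87 and 10.68. Its groups overlapped and its difference was -0.05 (95% interval -0.55 to 0.44).

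Usp12 and Usp46 are near twins that need the WD-repeat protein WDR48 to work. Usp12 came closest to the threshold without passing it. It read 9.97, 10.06 and 9.83 in LPS and 9.17, 8.80 and 8.92 in LPS/GalN, with no overlap. The difference was -0.99 ± 0.22 (95% interval -1.49 to -0.48), a 1.98-fold lower mean, at an adjusted p of 0.0513 by limma. With arrays left out in turn it lay between -1.09 and -0.91, and between the 2 arrays low in both marker lists it was -0.66. The target is at chr5:147546415-147570024 in mm9. Usp46 read 7.90, 7.41 and 7.62 against 7.74, 6.297 and 7.71, so that LPS/GalN array 2 alone was low and the groups overlapped. Its difference was -0.39 ± 0.40, with a 95% interval from -1.32 to 0.54 that holds 0. The third of this block, Usp47, which acts in base excision repair, had -0.23 ± 0.26. Their partners Wdr48 and Wdr20a stood at 0.24 ± 0.25 and 0.09 ± 0.28.

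Usp1, the WDR48-dependent enzyme of the Fanconi anaemia pathway, is spelled differently in its description and so lies outside the 42. It read 8.84, 8.44 and 8.30 in LPS and 7.40, 7.999 and 8.66 in LPS/GalN. The groups overlapped, with a difference of -0.51 ± 0.35 and an adjusted p of 0.508. Usp45, outside the rule for the same reason, had -0.27 ± 0.41. Usp30, the mitochondrial member, had no row under the rule and was not analysed here.

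**Figure D3:**
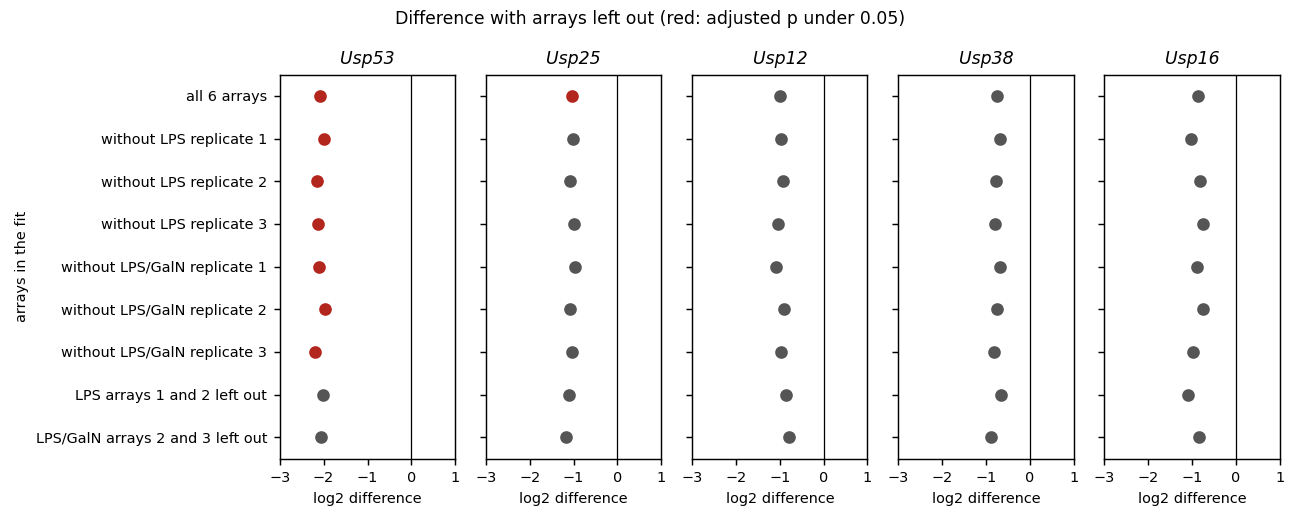
Log2 difference of LPS/GalN minus LPS (horizontal axis) for 5 members with all 6 arrays, with each array left out, and with LPS arrays 1 and 2 or LPS/GalN arrays 2 and 3 left out; red dots have an adjusted p under 0.05. Usp53 stays red with any 1 array out, Usp25 does not with any, and every dot stays below 0. The fits with 2 arrays out keep 1 array in a group, so the colour of their dots is not read.

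Sequences were looked up for the members in RefSeq's table of promoters (GRCm38.p6), which matched 32 of the 42. The 250 bases before the annotated start are shown for the 4 matched genes with the smallest p, because these are the members beside Usp53 whose groups stood furthest apart. They are Usp25 at chr16:77013819-77014068 (plus strand), Usp12 at chr5:146794957-146795206 (minus strand), Usp38 at chr8:81014907-81015156 (minus strand) and Usp16 at chr16:87454735-87454984 (plus strand). They run 5′ to 3′ along the gene, and the capitals mark the E-box letters CACGTG.
Usp25: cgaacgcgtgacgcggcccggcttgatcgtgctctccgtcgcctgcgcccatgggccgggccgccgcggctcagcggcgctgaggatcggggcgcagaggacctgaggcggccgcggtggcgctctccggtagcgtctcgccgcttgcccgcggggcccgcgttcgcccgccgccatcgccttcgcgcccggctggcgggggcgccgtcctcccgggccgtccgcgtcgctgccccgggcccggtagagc
Usp12: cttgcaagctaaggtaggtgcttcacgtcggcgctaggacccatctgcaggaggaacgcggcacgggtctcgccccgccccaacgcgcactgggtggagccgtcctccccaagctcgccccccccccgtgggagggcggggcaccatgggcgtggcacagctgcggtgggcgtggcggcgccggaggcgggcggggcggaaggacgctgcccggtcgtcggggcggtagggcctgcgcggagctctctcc
Usp38: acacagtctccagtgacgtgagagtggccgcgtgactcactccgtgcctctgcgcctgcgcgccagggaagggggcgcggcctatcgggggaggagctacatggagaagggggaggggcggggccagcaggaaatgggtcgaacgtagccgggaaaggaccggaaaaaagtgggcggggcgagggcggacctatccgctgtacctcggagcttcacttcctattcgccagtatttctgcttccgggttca
Usp16: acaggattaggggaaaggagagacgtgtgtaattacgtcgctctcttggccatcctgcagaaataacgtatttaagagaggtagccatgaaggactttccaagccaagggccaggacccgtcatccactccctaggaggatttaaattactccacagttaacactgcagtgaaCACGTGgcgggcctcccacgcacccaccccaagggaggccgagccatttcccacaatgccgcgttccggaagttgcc

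The windows differ in base composition. Usp25 had 80% G and C with 47 CpG dinucleotides, Usp12 74.8% with 30, Usp38 64% with 22 and Usp16 54% with 12. Over the 32 member promoters the median was 65.6% and 24.5 CpG, against 52.4% and 6 CpG over all 32851 entries of the table. A set of 5 motifs was searched on both strands, and no match of one overlapped a match of another in the members. CACGTG occurred in 3 members (Usp16, Usp31 and Usp4) and in 6.02% of all entries. The core of the interferon-stimulated response element, searched as TTTC, 2 bases of any kind and TTTC, was found in Usp49 alone of the members (2.98% of all entries) and the kappaB consensus in Usp13 alone (7.25%). TATAAA was found in Usp19 and Usp40 (12.4%), and TGACGTCA in none (1.55%). Of the 4 windows shown, Usp16 alone held any of the 5. Outside these windows, Usp31, lower without overlap of the groups, and Usp4, higher without overlap in the row kept only, held CACGTG. Usp53 was not among the 32 matched genes. Whether any of these letters bears on the differences was not tested.

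The chromatin members take ubiquitin off histones or act in the nucleus. None of 9 was called in either direction, and their median difference was 0.10, with a range from -0.87 to 0.87. Usp16, an H2A enzyme needed for mitosis, read 8.20, 8.63 and 8.74 in LPS and 7.67, 7.43 and 7.86 in LPS/GalN. The groups did not overlap, and the difference was -0.87 ± 0.25 with an adjusted p of 0.115 by limma. It was -1.07 between the 2 arrays low in both marker lists. A dim clone row at the same locus, outside the rule, differed by 0.30.

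Usp36, a nucleolar enzyme of ribosome production, read 8.94, 9.06 and 8.92 against 8.62, 8.10 and 7.61. Its LPS values were tight while LPS/GalN spread over about a log2 unit without overlap, and the difference was -0.87 ± 0.29 (adjusted p 0.169). It was -0.31 between LPS array 3 and LPS/GalN array 1. Outside the rule, 2 clone rows overlap the Usp36 locus; the brighter differed by -0.65 ± 0.25 and the dimmer, with overlapping groups, by 0.33 ± 0.53.

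Usp21, another H2A enzyme, went the other way. It read 8.28, 8.51 and 8.36 in LPS and 9.02, 9.31 and 8.75 in LPS/GalN, with no overlap. The difference was 0.64 ± 0.23 at an adjusted p of 0.206, and its dimmer second row gave 0.10. Usp16 and Usp21 thus stood on opposite sides of 0, neither past the threshold. Another H2A enzyme, Usp3, had 3 rows at -0.46, -0.61 and -0.86, alike in sign, with overlapping groups in the row kept.

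Usp7, which stabilises MDM2 and p53, and Usp22, the deubiquitinase of the SAGA coactivator, lay near 0. Usp7 read 9.92, 9.81 and 10.19 against 10.06, 10.33 and 10.20, a difference of 0.22 (95% interval -0.29 to 0.73), and its 3 rows gave 0.21 to 0.30. Usp22 read 7.46, 7.36 and 7.24 against 7.35, 7.56 and 7.44, a difference of 0.10 (-0.38 to 0.58). Both groups overlapped in each gene. Mdm2, the ligase that Usp7 acts on, had -1.12 ± 0.25 (adjusted p 0.056), and Trp53 -0.21 ± 0.24.

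The remaining 3 chromatin members were dim. Usp51 was not above the random-probe row on any LPS array and was above it on all 3 LPS/GalN arrays, at 4.93 and 5.33 on average, and the size of its difference is only bounded. Usp44 read 5.41, 5.12 and 4.34 in LPS and 4.93, 5.40 and 7.16 in LPS/GalN. A single array, LPS/GalN 3, one of the 2 with high T cell markers, was high, and without it the difference was 0.21 in place of 0.87. Usp49 differed by 0.08.

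**Figure D4:**
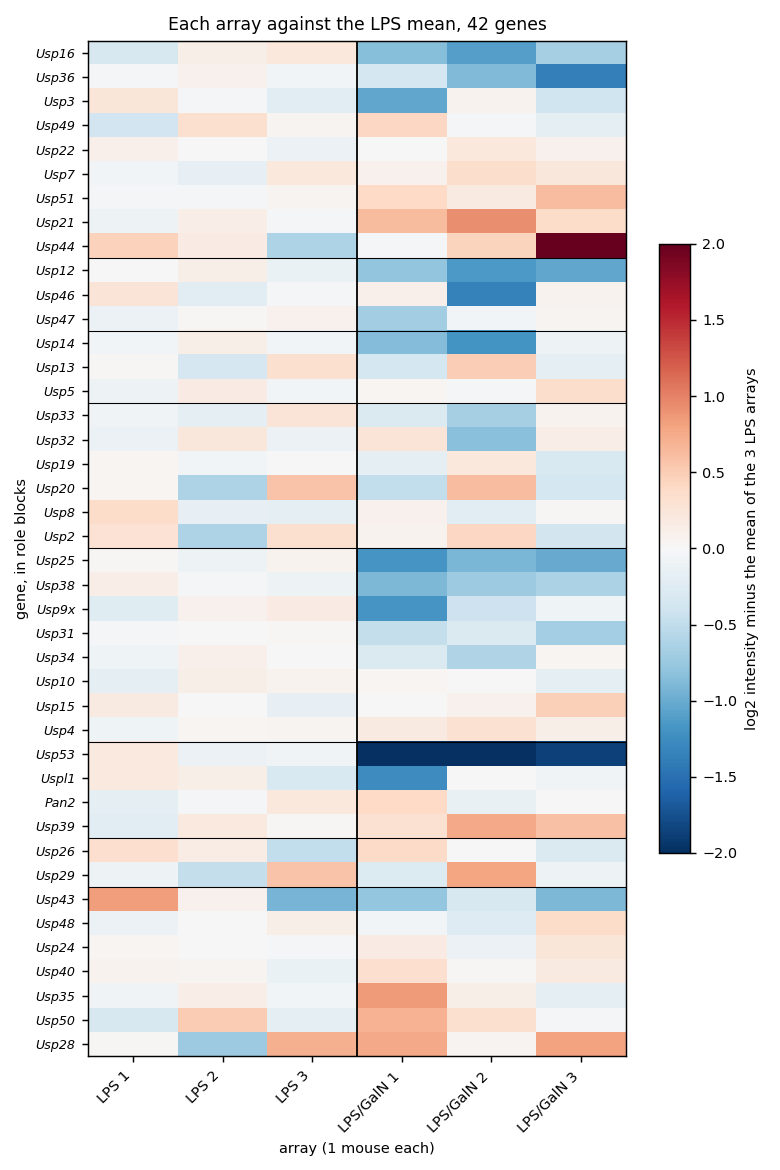
Log2 intensity of each array minus the mean of the 3 LPS arrays, for the 42 genes (rows, in role blocks) and 6 arrays (columns, 1 mouse each); blue is lower and red higher, on a scale cut at 2 log2 units. Usp53, Usp25, Usp12, Usp38 and Usp16 are blue in all 3 LPS/GalN columns, while the dark cell of Usp44, at 7.16, and the blue cell of Usp46, at 6.297, are single arrays.

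In the proteasome and free-chain block, no gene of 3 was called. Usp14 trims chains at the proteasome and read 9.88, 10.05 and 9.88 against 9.07, 8.74 and 9.84. LPS/GalN array 3 lay just below the lowest LPS array, though the groups did not overlap, and the difference was -0.72 ± 0.31 (adjusted p 0.275), or -1.03 without that array. Its other 2 rows gave -0.39 and -0.55. Usp5, which takes apart free ubiquitin chains, read 9.09, 9.35 and 9.14 against 9.24, 9.18 and 9.55 and differed by 0.12 (95% interval -0.39 to 0.64). Its relative Usp13 was above the random-probe row on 1 array of each group.

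The 6 members of endosomes, membranes and organelles lay between -0.29 and 0.04, with none called. Usp8, which works with STAM proteins in receptor sorting at endosomes, read 10.74, 10.21 and 10.17 against 10.46, 10.17 and 10.39. Usp19, anchored in the endoplasmic reticulum, read 11.80, 11.69 and 11.76 against 11.57, 11.97 and 11.44. In both the groups overlapped, at -0.03 (95% interval -0.60 to 0.53) and -0.09 (-0.62 to 0.44). Stam, Stam2 and Hgs, the sorting partners of Usp8, stood at 0.00, 0.16 and 0.17. Usp2, which is under circadian control in liver, was dim, above the random-probe row on 2 arrays of each group, at 0.04 ± 0.34. Usp20 was dim as well, and Usp32 and Usp33 gave -0.15 and -0.29. Clone rows outside the rule at the Usp33 and Usp20 loci stood on the other side of 0, at 0.87 ± 0.33 (adjusted p 0.228, groups not overlapping) and 0.81 ± 0.40 (adjusted p 0.349, groups overlapping).

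The block of Usp53 holds 3 other members that are unusual by function. Usp39 is a splicing factor without peptidase activity and read 6.99, 7.41 and 7.24 against 7.52, 7.98 and 7.80. The groups did not overlap, at 0.55 ± 0.24 and an adjusted p of 0.278. Pan2 shortens poly(A) tails and differed by 0.08, and Uspl1, a SUMO peptidase, by -0.45 ± 0.37. A second Uspl1 row was nearly as bright, with a mean of 6.52 against 6.54. It differed by -0.77 ± 0.31, with groups not overlapping and an adjusted p of 0.251 by limma. Clone rows outside the rule at the Uspl1 locus gave 0.23, 0.22 and -0.08. The germline genes Usp26 and Usp29 were near the random-probe level, at 0.03 and 0.13.

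Among the other 7 genes, Usp24, one of the 5 brightest, read 10.55, 10.52 and 10.49 against 10.68, 10.41 and 10.76, and differed by 0.09 (95% interval -0.40 to 0.58). The remaining 6 ranged from -0.66 for Usp43 to 0.54 for Usp28. Usp43 read 6.78, 6.03 and 5.01 in LPS and 5.17, 5.63 and 5.04 in LPS/GalN. Its 2 highest values fell on LPS arrays 1 and 2, those with high intestine markers, and its difference was -0.66 ± 0.43 with all arrays and 0.16 between LPS array 3 and LPS/GalN array 1.

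The 20 genes with several rows show how far a value depends on the row. None had 2 rows past the threshold. In 8 genes every row lay below 0, among them Usp14, Usp3, Usp33 and Uspl1, and in 8 every row lay above 0, among them Usp7, Usp48, Usp21 and Usp50. The 4 rows of Usp48, which acts on RELA, ran from 0.02 to 0.68, with the smallest difference in the brightest row. The other 4, Usp4, Usp15, Usp40 and Usp9x, had rows of both signs. Outside the rule, 34 further rows overlap the loci of 21 members by position, some of them named for neighbouring genes. None passed the threshold, and 16 had the sign of the member's own row against 18 with the opposite sign. At an unadjusted p under 0.05 there were 4, beside 9.05% lower and 8.5% higher of all features. The groups did not overlap in 7, beside 11.1% lower and 13% higher of all features.

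**Figure D5:**
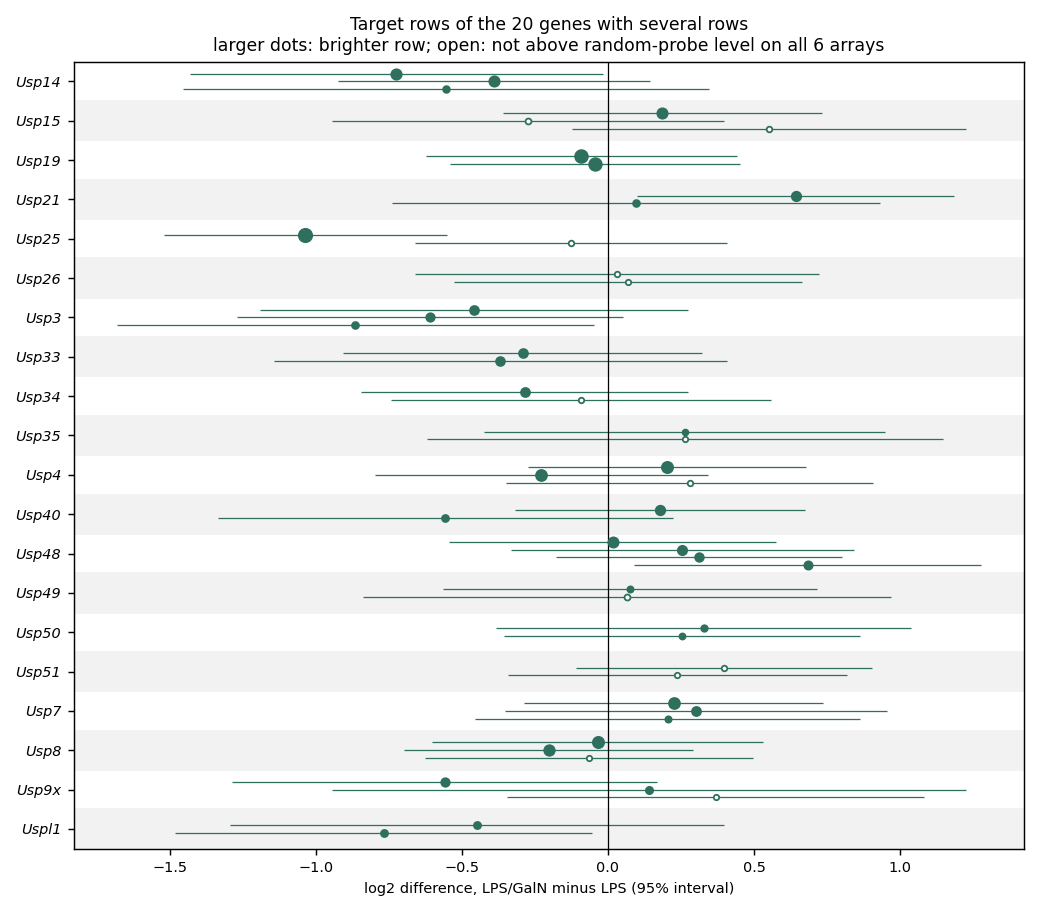
Log2 difference of LPS/GalN minus LPS (horizontal axis) with 95% intervals for each target row of the 20 genes that have several; a larger dot is a brighter row and an open dot a row not above the random-probe level on all 6 arrays. The bright Usp25 row at -1.04 and its dim row at -0.13 stand apart, while the 3 rows of Usp14 and of Usp3 all lie below 0.

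The rest of the ubiquitin machinery was compared in the same way. Of 30 measured genes of 39 listed among other deubiquitinases and SUMO or NEDD8 peptidases, 1 was called lower and none higher, with a median of 0.19. That gene was Tnfaip3 (A20), an NF-kappaB inhibitor that edits ubiquitin chains. It read 11.23, 11.26 and 10.92 in LPS and 6.65, 6.49 and 6.41 in LPS/GalN. Of 9 activating enzymes 1 was called lower, Uba7, which charges the ubiquitin-like protein ISG15. It read 9.22, 9.24 and 9.00 against 8.03, 7.81 and 8.10, a difference of -1.17 ± 0.21 at an adjusted p of 0.0239 by limma. Its call was lost without LPS array 1 or 2 or without LPS/GalN array 2 or 3, with differences of -1.25 to -1.09 over the 6 fits that leave out 1 array. The other 8 activating enzymes lay between -0.51 and 0.46. None of the 30 conjugating enzymes passed (median 0.16, range -0.98 to 0.67), nor any of the 4 ubiquitin genes (median -0.20) or of 13 measured partners and targets of 17 listed (median 0.14, range -1.12 to 1.07). Over all 86 genes of these lists, 8 were lower and 8 higher at an unadjusted p under 0.05. These counts are near the shares over all features, 9.05% lower and 8.5% higher. Among the partners the highest was Pcna, a substrate of Usp1, at 11.43, 11.50 and 11.56 in LPS and 11.88, 13.03 and 12.80 in LPS/GalN, with its highest values on the 2 arrays with high T cell markers.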

How the data were processed

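The 6 livers were measured on NimbleGen 1-colour arrays, 1 mouse each, and groups and replicate numbers came from the labels. The authors deposited RMA intensity per target on a linear scale, per the submitters' processing notes and the file headers; RMA corrects background, normalises between arrays and summarises the probes, here 3 probe pairs for each member row, so a global change in RNA would be removed. No version of RMA is given in the sources used here. Rows were joined by gene name and chromosome, keeping the brightest. Log2 intensities of 36550 features were fitted with limma 3.58.1 (lmFit and eBayes, group only, 4.01 prior degrees of freedom) in R 4.3.3, two-sided, with Benjamini-Hochberg adjustment and no filter on dim features. The steps were tested on simulated data. Their number limits what 6 arrays can resolve. A table the authors deposited with intensity of the brighter targets was an alternative, among 16 in all. Same-numbered arrays did not deviate together.

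The members, the lists and the alternatives were chosen with earlier results of these data known. Named genes were every called member, the 5 brightest, the 3 nearest the threshold and a fixed list of 17 members of known function; others with values were chosen after those were seen. Promoters were matched by symbol.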

Additional observations from a re-analysis of the deposited data

How the results depend on the processing

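The number of members called lower was 2, and it was 5 with the series' table of bright targets (29 members measured) and with 50 added to each intensity, and 4 with trend and robust moderation. Over all features the share called lower rose as well, from 3.03% to 9.1%, 4.1% and 4.48% in these fits. Usp53 was called under each of these, as were Usp25, Usp12 and Usp38. Usp12 also passed by limma after centring each array on its median (adjusted p 0.0449) and without dim features (adjusted p 0.0467), where 3 members were called. Of all features 3.26% and 3.63% were called lower in these fits. With the rows of a gene averaged, Usp25 was no longer called (adjusted p 0.198) and Usp12 was (adjusted p 0.0461). Leaving out each array in turn gave 1 each time, Usp53, beside 1.82% to 3.03% of all features called lower. The median difference of the members then lay between -0.109 and 0.018. Without LPS arrays 1 and 2, or without LPS/GalN arrays 2 and 3, 1 array is left in a group. The median difference over all features was then 0.053 and 0.046. The lone array of a group is there assumed to vary like the other group. No member was called higher by limma under any alternative that keeps at least 2 arrays a group. Of all features 0.109% to 4.29% were, in the same fits.

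The median was -0.061 after that centring, -0.152 with the table of bright targets and -0.128 without LPS arrays 1 and 2. LPS array 3 against LPS/GalN array 1, chosen after seeing the data, gave -0.079. As a pairing check, deviations of same-numbered arrays correlated at 0.0031, -0.0024 and 0.027, so these arrays showed no shared deviation. Such values cannot show whether same-numbered mice were treated or processed together. With the replicate block 1 member was called lower (Usp53), Usp25 had an adjusted p of 0.104, and all features gave 833 lower and 115 higher calls in place of 1109 and 222. Trend and robust moderation gave 1636 and 909. Of the 86 other ubiquitin system genes, read under the same alternatives after seeing the data, 2 were called lower and 0 higher by limma. The counts were 4 and 1 with the table of bright targets and 5 and 2 with 50 added. They were 5 and 4 with trend and robust moderation and 1 and 1 with the block. With each array left out they were 1 to 4 and 0 to 2 (highest without LPS/GalN array 1). Signal near the random-probe level limits 8 members.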
